A study of Mus musculus with 4 samples.

Results

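Levels of 10 blood transcription factor genes were examined in Trim33-deficient and Control mouse embryoid bodies: Tal1, Lyl1, Lmo2, Gata2, Gata1, Runx1, Spi1, Klf1, Gfi1b and Nfe2. The genes were listed by name as regulators of blood formation, together with Tal1 and Spi1 as genes of TRIM33 partner proteins, and all 10 were among the 24015 gene symbols counted. Embryoid bodies are clumps of embryonic stem cells that, left to differentiate in suspension, form a mixture of early tissues. The stem cell lines came from outbred mouse embryos homozygous for a floxed Trim33 allele and carrying the UbcCreERT2 transgene, a tamoxifen-inducible Cre driven by a ubiquitin promoter and thus not limited to blood cells. The 2 Trim33-deficient libraries came from bodies made Trim33-deficient by 4OH-Tamoxifen given on day 4 of differentiation, and the 2 Control libraries carry the genotype label wild type. All 4 were harvested on day 7, at passages that the labels give as one range for both groups. The labels do not say whether Control bodies carried the allele and transgene or received the drug, so effects of the drug and of Cre cannot be told apart from loss of Trim33. The labels speak of independent pairs but do not say whether the replicates are separate lines. The p-values here thus reflect a spread between libraries that may be technical.

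Blood forms in the mouse yolk sac from mesoderm that also gives rise to endothelium. TAL1 or its relative LYL1, both basic helix-loop-helix proteins, join LMO2, LDB1, an E protein and a GATA factor in a complex that switches on the programs of blood and endothelial cells. RUNX1 drives the step from hemogenic endothelium to blood cells, GATA2 acts in progenitors, GATA1 in red cells and megakaryocytes, and PU.1, the product of Spi1, in white blood cells. KLF1, GFI1B and NFE2 act later, on globin and red cell genes, on red cell and megakaryocyte maturation, and on platelet and globin genes. TRIM33, also called TIF1-gamma, is a ubiquitin ligase and chromatin reader. In zebrafish its loss blocks the formation of red blood cells, and the human protein associates with the TAL1 complex.

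Counts assigned to genes totalled 13808837 and 12109547 in Trim33-deficient and 12390541 and 10422738 in Control libraries. Trim33 itself had 608 and 495 counts in Trim33-deficient and 1203 and 1117 in Control libraries, a log2 fold change of −1.23 (SE 0.13). The edgeR quasi-likelihood adjusted p was 0.219 and that of DESeq2 1.8e-06, or 0.176 and 0.204 by DESeq2 with Trim33-deficient replicate 1 or 2 left out. In the authors' deposited table it stood at −1.22 with an adjusted p of 0.00109, and 0 of the 10 blood factors are among the 84 genes of that table. Across all 14259 tested genes edgeR called 0.014% of genes, none of them higher in Trim33-deficient bodies, and 7.84% had an unadjusted p under 0.05. Control replicate 1 stood apart: across genes its Pearson correlations ran from 0.932 to 0.952, and those among the remaining libraries from 0.967 to 0.978. Summed markers of endoderm, heart, nerve, pluripotent cells, endothelium and embryonic red cells had counts in every library.

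The blood factors spanned a wide range of levels. Levels in CPM, counts scaled to library size with TMM factors, were divided by the length of each gene's longest transcript in kilobases so that genes can be compared. Gata2 was the highest, with means of 13.5 CPM per kilobase in Trim33-deficient and 20.5 in Control bodies. Runx1 followed at 8.26 in Trim33-deficient and 3.54 in Control bodies, and Lmo2 at 7.08 in Trim33-deficient and 8.14 in Control bodies. Runx1 and Lmo2 overlapped over the Trim33-deficient libraries (6.13 to 10.4 CPM per kilobase for Runx1, 5.66 to 8.50 for Lmo2), and in Control Lmo2 lay at 7.50 to 8.79, above Runx1 at 3.45 to 3.63 and overlapping Gata2 at 7.60 to 33.5. Tal1 reached 1.86 and Lyl1 1.49 CPM per kilobase in Trim33-deficient bodies, against 1.39 and 1.60 in Control, and these neighbours overlapped within each group. Nfe2, Gata1, Klf1, Gfi1b and Spi1 had lower means, between 0.161 and 1.20 in Trim33-deficient and between 0.134 and 0.637 in Control bodies, though Nfe2 reached 2.14 in Trim33-deficient replicate 2. The abundance filter kept 7 of the 10 genes for testing and removed Spi1, Gfi1b and Nfe2, whose levels are given as a description, beside a fit made without the filter.

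**Figure D1:**
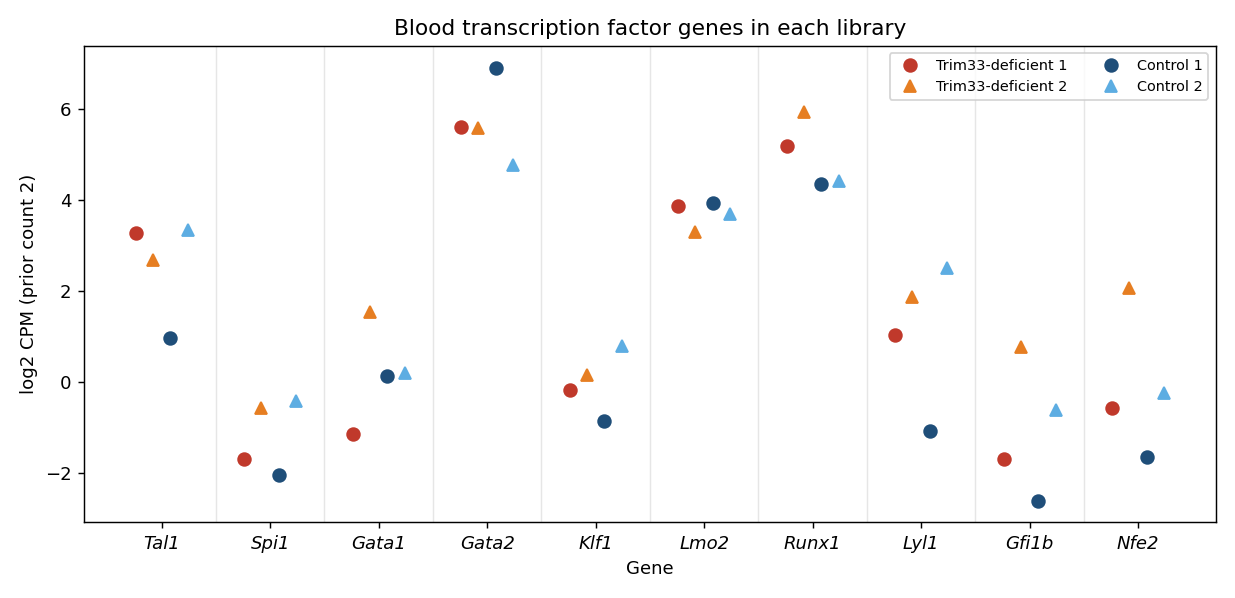
Log2 CPM (TMM-scaled, prior count 2) of the 10 genes in each library, one point a library, with Trim33-deficient libraries in red and orange and Control libraries in blue. Runx1 is the only one of the tested genes shown with both Trim33-deficient points above both Control points, which held for 19.3% of all tested genes. Control replicate 1 lies lowest for 7 of the 10 genes and highest for Gata2 and Lmo2. It was the lowest library for 4460 of all 14259 tested genes. For Runx1 the Control points lie close together, at 4.35 and 4.42.

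Runx1 was higher in both Trim33-deficient libraries than in both Control libraries. It had 498 and 713 counts in Trim33-deficient and 262 and 218 in Control libraries. Scaled for depth these were 35.9 and 60.9 CPM against 20.2 and 21.3 CPM, or 48.4 ± 17.7 and 20.8 ± 0.738 CPM (SD, n = 2 each). The 2 Control libraries lay close together and Trim33-deficient replicate 2 was the highest. The log2 fold change was 1.22 (SE 0.29), a 2.33-fold higher level, with 2 standard errors either side spanning 0.65 to 1.79. In the edgeR quasi-likelihood fit Runx1 missed the threshold (unadjusted p = 0.00934, adjusted p = 0.530), as it did with the replicate number as a block (adjusted p = 0.256). DESeq2 called it at an adjusted p of 0.0476 and edgeR's likelihood ratio test at 0.0483, both just under the threshold of 0.05. DESeq2 called 0.989% of tested genes, 0.182% higher and 0.807% lower, and the likelihood ratio test called 0.203% higher. Runx1 was also the 1 tested member with an unadjusted edgeR p under 0.05. Without Control replicate 1, Trim33-deficient replicate 1 or Trim33-deficient replicate 2 the DESeq2 adjusted p was 0.301, 0.121 and 0.9999, and with only Control replicate 2 left out it was 0.0355. The log2 fold change itself was 0.79 without Trim33-deficient replicate 2. Non-overlap in this direction was seen for 1 of the 7 tested blood factors and for 19.3% of all tested genes. In embryoid bodies sequenced in bulk, a difference in the number of cells of a type and one in RNA per cell cannot be told apart. The 3 visceral endoderm markers Afp, Ttr and Apoa1, all counted in every library, summed to 36.6 and 31.4 CPM in Trim33-deficient and 524 and 469.6 CPM in Control libraries, and the part of this tissue in the Runx1 level was not tested. GENCODE vM21 places 106 exon bases of Runx1 opposite those of the antisense gene Gm26626, and the sources used here do not give the strand setting of the counting.

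Runx1 is transcribed from a distal and a proximal promoter, which counts per gene do not separate. The 250 bases before each RefSeq start site are shown because Runx1 was the member whose groups did not overlap. They lie on the minus strand of GRCm38.p6 at chr16:92826075-92826324 (distal) and chr16:92697330-92697579 (proximal). Capitals in these and the following promoters mark GATA words (AGATAA or AGATAG or TGATAA or TGATAG), the RUNX word TGTGGT and the ETS words CGGAAG or AGGAAG, each searched on both strands with overlaps allowed. A match is a description of the letters and not a bound site.
Runx1 distal: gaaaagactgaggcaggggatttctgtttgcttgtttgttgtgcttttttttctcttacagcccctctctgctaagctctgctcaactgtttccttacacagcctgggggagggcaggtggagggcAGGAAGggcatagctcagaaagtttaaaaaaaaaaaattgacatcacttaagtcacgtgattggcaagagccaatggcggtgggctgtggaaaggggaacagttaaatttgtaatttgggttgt
Runx1 proximal: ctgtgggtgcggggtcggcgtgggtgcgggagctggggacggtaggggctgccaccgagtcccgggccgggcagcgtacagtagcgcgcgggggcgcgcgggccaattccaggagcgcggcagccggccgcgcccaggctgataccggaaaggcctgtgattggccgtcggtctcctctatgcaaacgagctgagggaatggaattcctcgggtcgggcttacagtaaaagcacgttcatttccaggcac
The distal window holds an ETS word 124 bases before the start, and the proximal window holds none of the words. Among all 32851 RefSeq windows of this length, 26.5% hold a GATA word, 14.0% the RUNX word and 39.2% an ETS word. E-boxes (CANNTG), the words of basic helix-loop-helix proteins such as TAL1, are in 66.2% of windows, and the distal Runx1 window holds 3 of them.

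With all 4 libraries the partner and relatives of RUNX1 had log2 fold changes nearer to 0 than that of Runx1. Cbfb, which encodes the DNA-binding partner shared by all RUNX proteins, had 165 and 159 CPM in Trim33-deficient and 130.1 and 145 CPM in Control libraries. This gave a log2 fold change of 0.24 (SE 0.11, edgeR adjusted p = 0.664). Runx2, the bone-forming relative, had 103 and 106 counts in Trim33-deficient and 64 and 36 in Control libraries, a log2 fold change of 0.96 (SE 0.33, edgeR adjusted p = 0.618). For both genes the groups did not overlap, as for 19.3% of all tested genes in this direction, and neither passed the test. Without Control replicate 1 Runx2 stood at 1.22 and Runx1 at 1.18, so the order of these genes depended on that library. Runx3, the relative best known from T cells, had 46 and 69 counts in Trim33-deficient and 74 and 69 in Control libraries.

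Tal1, the blood and endothelial partner of TRIM33, showed a difference between the groups smaller than the spread of its libraries. It had 131 and 73 counts in Trim33-deficient and 23 and 102 in Control libraries, or 9.45 and 6.23 against 1.78 and 9.96 CPM. Control replicate 1 was the lowest of the 4 libraries, at 5.60 times below Control replicate 2, and the groups overlapped. Its log2 fold change came to 0.43 (SE 0.82, edgeR adjusted p = 0.886) and 2 standard errors either side ran from −1.21 to 2.07, so a change of more than 2-fold in either direction is within the interval. Without Control replicate 1 the value turned to −0.34, and without Control replicate 2 it was 2.14, with an edgeR adjusted p of 0.112.

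Lyl1, the close relative of Tal1, followed the same order of low and high Control libraries. Its counts were 26 and 41 in Trim33-deficient and 4 and 56 in Control libraries, or 1.88 and 3.50 against 0.309 and 5.47 CPM. The 2 Trim33-deficient libraries lay between the 2 Control libraries, which differed 17.7-fold. A log2 fold change of −0.085 resulted (SE 1.20, edgeR adjusted p = 0.987). It was 3.07 without Control replicate 2, −1.04 without Control replicate 1, and 0.59 with the replicate block (adjusted p = 0.832). GENCODE vM21 has 4 exon bases of Lyl1 opposite those of Nfix.

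The promoters of Tal1 and Lyl1 are shown because both genes were lowest in Control replicate 1. That library was the lowest for 7 of the 10 blood factors, so this does not set the 2 genes apart. They lie on the plus strand of GRCm38.p6, at chr4:115056176-115056425 for the upstream of 2 Tal1 start sites in the table and at chr8:84701207-84701456 for Lyl1.
Tal1: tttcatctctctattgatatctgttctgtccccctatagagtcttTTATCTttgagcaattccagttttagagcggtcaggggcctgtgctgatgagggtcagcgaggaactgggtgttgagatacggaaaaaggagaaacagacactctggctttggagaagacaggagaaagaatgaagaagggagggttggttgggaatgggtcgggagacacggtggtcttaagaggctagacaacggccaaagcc
Lyl1: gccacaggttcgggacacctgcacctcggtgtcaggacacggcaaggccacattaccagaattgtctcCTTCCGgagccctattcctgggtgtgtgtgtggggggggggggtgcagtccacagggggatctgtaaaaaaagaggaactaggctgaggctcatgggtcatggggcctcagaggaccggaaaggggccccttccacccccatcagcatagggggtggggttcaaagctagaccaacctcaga
The printed Tal1 window holds a GATA word on the reverse strand 205 bases before the start. The window of the downstream Tal1 start site, which is not printed, holds none of the words. The Lyl1 window holds an ETS word on the reverse strand 182 bases before its start. Klf1, also lowest in Control replicate 1, has a window that is not printed. It holds a GATA word 80 bases and the RUNX word 133 bases before the start, both on the reverse strand.

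Lmo2, the LIM-only bridge between TAL1 and GATA factors, was close in the 2 groups. It had 201 and 113 counts in Trim33-deficient and 194 and 131 in Control libraries, or 14.5 and 9.65 against 15.0 and 12.8 CPM. Its log2 fold change of −0.20 (SE 0.29) was smaller than its error, with an edgeR adjusted p of 0.854 and an interval of 2 standard errors from −0.78 to 0.38. Without Trim33-deficient replicate 2 the value was 0.061.

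Genes of the other TAL1 complex proteins and of the RUNX1 and GATA1 cofactors were all expressed. All 10 listed partner genes were tested, among them Ldb1, the E protein genes Tcf3, Tcf4 and Tcf12, and the corepressor gene Cbfa2t3. None was called by edgeR, by edgeR with the block or by DESeq2, and 0 had an unadjusted edgeR p under 0.05. Over all tested genes these fits called 0.014%, 0.014% and 0.989%, and 7.84% had an unadjusted edgeR p under 0.05. At such shares, an absence of calls in a short list says little about its genes, here and in the lists below. The list's median log2 fold change was 0.090, beside −0.0014 over all tested genes. The smallest p values belonged to Cbfb, to the LDB1-binding gene Ssbp4 at 0.21 (SE 0.13) and to Zfpm1 at 0.54 (SE 0.34), with edgeR adjusted p of 0.701 for Ssbp4 and 0.710 for Zfpm1. Zfpm1, which encodes the GATA1 cofactor FOG1, had 149 and 158 CPM in Trim33-deficient against 70.1 and 141 CPM in Control libraries. The groups did not overlap, as in this direction for 6 of the 10 partner genes and 19.3% of all tested genes. Control replicate 1 was again the low one. Leaving out Control replicate 1 gave 0.12, and leaving out Control replicate 2 gave 1.13, where DESeq2 gave an adjusted p of 0.0011.

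Gata2, the GATA factor of progenitors, ran opposite to Tal1 over the Control libraries. It had 674 and 557 counts in Trim33-deficient and 1548 and 278 in Control libraries, or 48.6 and 47.6 against 119.6 and 27.1 CPM. The Trim33-deficient libraries agreed closely and lay between the Control libraries, which differed 4.41-fold. The log2 fold change of −0.61 (SE 0.68, edgeR adjusted p = 0.811) took a sign that depended on which Control library was left out. It was 0.82 without Control replicate 1 (edgeR adjusted p = 0.423) and −1.31 without Control replicate 2 (0.0528), where DESeq2 gave an adjusted p of 5.0e-04. Gata3, a relative with roles in T cells, trophoblast and nerve, was also higher in replicate 1 of each group, with 641 and 342 counts in Trim33-deficient and 715 and 317 in Control libraries.

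Gata1, the red cell and megakaryocyte factor, was scarce. It had 4 and 32 counts in Trim33-deficient and 12 and 10 in Control libraries, or 0.288 and 2.73 against 0.927 and 0.977 CPM. The Trim33-deficient libraries held both the lowest and the highest value. The log2 fold change of 0.64 (SE 1.06, edgeR adjusted p = 0.868) was −1.69 without Trim33-deficient replicate 2 and 1.52 without Trim33-deficient replicate 1.

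Gfi1b and Nfe2 were highest in the same library as Gata1. Gfi1b, a repressor needed for red cell and megakaryocyte maturation, had 2 and 18 counts in Trim33-deficient and 0 and 5 in Control libraries. A count of 0 in Control replicate 1 allows a level of up to 0.232 CPM, the worth of 3 counts. Nfe2, the activator of platelet and globin genes, had 7 and 47 counts in Trim33-deficient and 2 and 7 in Control libraries, or 0.505 and 4.01 against 0.155 and 0.684 CPM. Without the filter on low counts, the fitted log2 fold changes were 1.82 (SE 1.55) for Gfi1b and 2.44 (SE 1.16) for Nfe2, with edgeR adjusted p of 0.825 and 0.756.

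Klf1, the activator of globin genes, did not share this pattern. Its counts were 10 and 11 in Trim33-deficient and 5 and 16 in Control libraries, or 0.721 and 0.939 against 0.386 and 1.56 CPM. Both Trim33-deficient libraries lay between the Control libraries. The fitted log2 difference of −0.20 (SE 0.81, edgeR adjusted p = 0.951) was 1.08 with Control replicate 2 left out and −0.92 with Control replicate 1 left out.

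The promoters of Gata1 and Gfi1b are printed because these genes shared Trim33-deficient replicate 2 as their highest library. Both lie on the minus strand of GRCm38.p6, at chrX:7967911-7968160 for Gata1 and chr2:28621983-28622232 for Gfi1b.
Gata1: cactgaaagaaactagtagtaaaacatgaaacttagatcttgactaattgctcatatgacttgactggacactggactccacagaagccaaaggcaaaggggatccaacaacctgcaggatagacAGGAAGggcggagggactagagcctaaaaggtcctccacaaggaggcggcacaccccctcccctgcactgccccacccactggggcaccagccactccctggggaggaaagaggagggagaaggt
Gfi1b: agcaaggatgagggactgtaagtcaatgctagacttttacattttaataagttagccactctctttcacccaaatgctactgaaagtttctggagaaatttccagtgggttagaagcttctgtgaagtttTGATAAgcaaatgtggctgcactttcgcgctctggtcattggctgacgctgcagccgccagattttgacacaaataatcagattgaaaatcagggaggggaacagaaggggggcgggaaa
The Gata1 window holds an ETS word 125 bases before the start and the Gfi1b window a GATA word 120 bases before it.

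**Figure D2:**
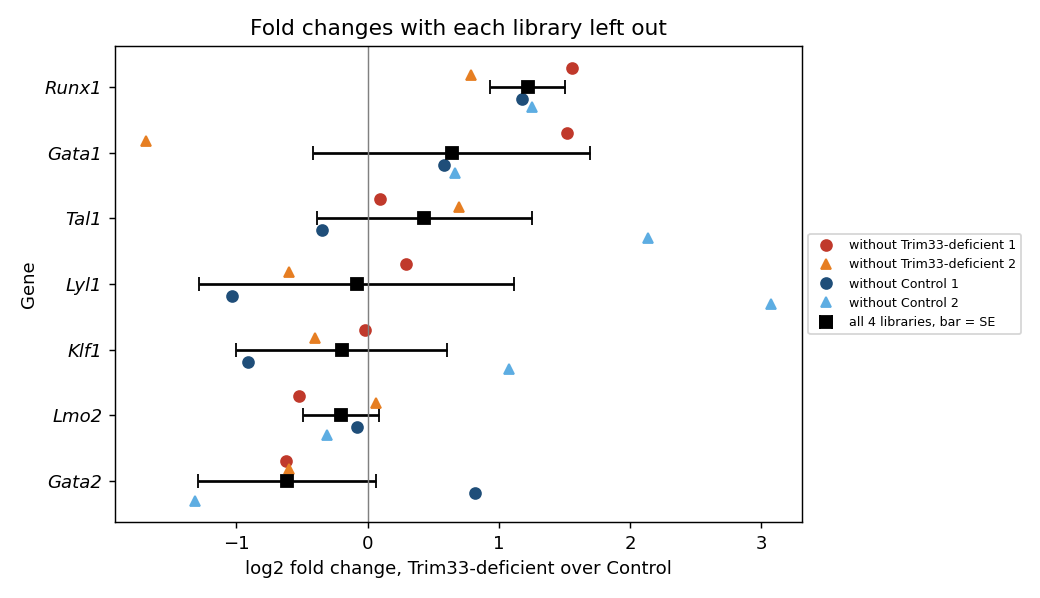
Log2 fold changes of the 7 tested genes, Trim33-deficient over Control, with all 4 libraries (black squares, bars of 1 standard error) and with each library left out (coloured points). Runx1 stays between 0.79 and 1.56, while each of the other 6 genes has points on both sides of 0.

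Embryonic globin genes, targets of GATA1 and KLF1, differed more between replicates than between groups. The embryonic globin genes Hbb-y, Hbb-bh1 and Hba-x together had 428 and 2362 counts in Trim33-deficient and 16 and 1227 in Control libraries. That is 30.9 and 201.7 CPM against 1.24 and 119.8 CPM, so Control replicate 1 was nearly free of globin RNA and replicate 2 was higher in both groups. Hbb-y had 2.96 and 33.2 CPM in Trim33-deficient and 0.464 and 13.3 CPM in Control libraries, with a log2 fold change of 1.41 (SE 1.64, edgeR adjusted p = 0.817). Hbb-bh1 stood at 0.68 (SE 1.75, adjusted p = 0.920) and turned to −0.33 without Control replicate 1. The adult globin genes Hba-a1, Hba-a2, Hbb-b1 and Hbb-b2 had 0 counts in all libraries, an uncertain value since these genes are near-identical copies.

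Of 24 listed red cell genes in the files, 15 were tested and none was called by edgeR in either direction, by edgeR with the block or by DESeq2, and 0 had an unadjusted edgeR p under 0.05. The median log2 fold change of those tested was 0.36, with 11 above 0 and 4 below (7096 of all 14259 tested genes were above 0). It was −0.53 without Trim33-deficient replicate 2, 0.90 without Trim33-deficient replicate 1, 0.022 without Control replicate 1 and 2.74 without Control replicate 2. The smallest p values belonged to the water channel gene Aqp1 at 0.60 (SE 0.24), the surface protein gene Ermap at −1.35 (SE 0.69) and Tspan33 at −0.86 (SE 0.57), with edgeR adjusted p from 0.645 to 0.717. Leaving out Control replicate 2 put Tspan33 at −1.37 and leaving out Control replicate 1 at −0.033. Ermap ran from −2.39 without Trim33-deficient replicate 2 to −0.72 without Trim33-deficient replicate 1. Aqp1 had 13.4 and 16.5 CPM in Trim33-deficient and 10.4 and 9.37 CPM in Control libraries, and endothelium expresses it too. Control replicate 1 lay more than 2-fold below every other library for 6 of the 15 genes, and for 3.39% of all tested genes.

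Megakaryocyte and platelet genes were highest in Trim33-deficient replicate 2 for 7 of the 9 tested genes, as were Gata1, Gfi1b, Nfe2 and Runx1. That library was the highest for 4051 of all 14259 tested genes. Of 16 listed genes 9 were tested, and none was called by edgeR with or without the block or by DESeq2. Their median log2 fold change was 0.96 and 8 were above 0. The median was 0.61 without Trim33-deficient replicate 2, 1.70 without Trim33-deficient replicate 1 and 2.31 without Control replicate 2. F2rl2, a thrombin receptor gene, had 28 and 90 counts in Trim33-deficient and 0 and 6 in Control libraries, with a fitted log2 fold change of 4.11 (SE 1.34, unadjusted p = 0.0305, edgeR adjusted p = 0.608). That value was 2.84 without Trim33-deficient replicate 2 and 8.95 without Control replicate 2. Tubb1, the platelet tubulin gene, had 13 and 62 counts in Trim33-deficient and 7 and 6 in Control libraries, and Rab27b, a granule transport gene, had 144 and 259 against 62 and 91. Their edgeR adjusted p was 0.647 for Tubb1 and 0.651 for Rab27b. Without Trim33-deficient replicate 2 the log2 fold changes were 0.73 for Tubb1 and 0.61 for Rab27b, against 2.44 and 1.25 with all libraries. Trim33-deficient replicate 2 exceeded every other library more than 2-fold for 4 of the 9 genes, against 0.596% of all tested genes. F2rl2 and Tubb1 passed the abundance filter through their Trim33-deficient counts. The list's counts and median thus rest partly on genes kept for being high in that group, and are a description only. Pf4 and Gp9, which mark platelets most closely, had 10 and 6 counts in Trim33-deficient replicate 2 and at most 1 elsewhere. The part of red cell and platelet content in the levels of Gata1, Gfi1b, Nfe2 and Runx1 was not tested.

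**Figure D3:**
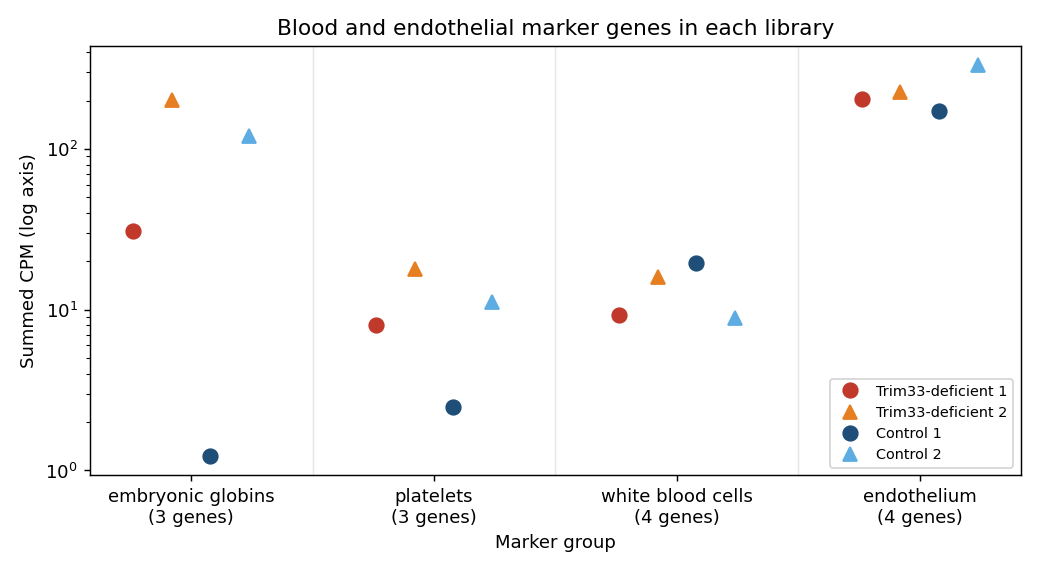
Summed CPM (log axis) of marker genes for embryonic globins, platelets, white blood cells and endothelium in each library, Trim33-deficient in red and orange and Control in blue. Globin RNA ranges from 1.24 CPM in Control replicate 1 to 201.7 CPM in Trim33-deficient replicate 2, while endothelial markers range from 172.2 to 330.8 CPM.

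Spi1, the gene of the TRIM33 partner PU.1, was at the edge of detection. It had 2 and 6 counts in Trim33-deficient and 1 and 6 in Control libraries, or 0.144 and 0.512 against 0.0773 and 0.586 CPM. Replicate 2 was the higher one in both groups, and no difference between the groups was detectable at this depth. The fit without the filter gave a log2 fold change of 0.021 (SE 1.24, edgeR adjusted p = 0.996), an error that leaves room for a change of more than 2-fold either way.

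White blood cells, where PU.1 acts, left few traces. Ptprc, the CD45 gene that all white blood cells share, had 0 and 1 counts in Trim33-deficient and 0 in both Control libraries, and Tyrobp had 0 and 2 in either group. Csf1r, a macrophage receptor gene and PU.1 target that trophoblast also expresses, was nevertheless counted 86 and 128 times in Trim33-deficient and 189 and 56 times in Control libraries, with a log2 fold change of −0.24 (SE 0.57, edgeR adjusted p = 0.914). The 4 white cell markers, of which Csf1r and Laptm5 held most counts, summed to 9.23 and 16.1 CPM in Trim33-deficient and 19.6 and 8.89 CPM in Control libraries. Of 29 listed myeloid genes 10 were tested, with a median log2 fold change of −0.31, and none was called by edgeR with or without the block or by DESeq2 or had an unadjusted edgeR p under 0.05. This median was 0.28 without Control replicate 1, −0.60 without Control replicate 2, −0.48 without Trim33-deficient replicate 2 and −0.099 without Trim33-deficient replicate 1. Fcgr3 at −1.37 (SE 0.58), Csf2ra at −0.61 (SE 0.34) and Coro1a at −0.56 (SE 0.49) had the smallest p values, with edgeR adjusted p from 0.655 to 0.769. Csf2ra was −0.15 without Control replicate 1, and Coro1a was −0.15 without Trim33-deficient replicate 1 and −1.10 without Trim33-deficient replicate 2. Spi1's relatives Spib and Spic had at most 13 counts in any library.

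Endothelium, which expresses Tal1, Lyl1, Lmo2 and Gata2 as blood progenitors do, was well represented. All 22 listed endothelial and precursor genes were tested, with a median log2 fold change of −0.032, and none was called by edgeR with or without the block or by DESeq2 or had an unadjusted edgeR p under 0.05. The endothelial median depended on the library left out, at −0.54 without Control replicate 1, 1.18 without Control replicate 2, −0.31 without Trim33-deficient replicate 1 and 0.085 without Trim33-deficient replicate 2. Kdr, the VEGF receptor gene of the common precursor, had 76.0 and 118.2 CPM in Trim33-deficient and 19.7 and 158.2 CPM in Control libraries. As for Tal1 and Lyl1, Control replicate 1 was lowest and Control replicate 2 highest. Control replicate 1 lay more than 2-fold below every other library for 11 of these 22 genes, as for Tal1 and Lyl1 among the 7 tested blood factors. Pecam1 was also lowest in Control replicate 1 and highest in Control replicate 2, by smaller margins. It had 30.0 and 31.4 CPM in Trim33-deficient and 24.6 and 43.5 CPM in Control libraries. Not all endothelial genes followed this order. Cdh5, the VE-cadherin gene, had 79.3 and 60.5 CPM in Trim33-deficient and 122.6 and 87.8 CPM in Control libraries, with a log2 fold change of −0.59 (SE 0.23, edgeR adjusted p = 0.641). Sox17 at −0.41 and Cd34 at 0.90, a factor of hemogenic endothelium and a surface protein of progenitors, had edgeR adjusted p of 0.664 each. With Control replicate 1 left out Cd34 stood at 0.40, and with Control replicate 2 left out at 1.65 (edgeR adjusted p = 0.0615). The part of endothelial content in the levels of Tal1 and Lyl1 was not tested.

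Further blood factors mostly lay above 0 on the log2 scale, without any call. Of 20 listed genes 19 were tested, 16 of them above 0 (7096 of all 14259 tested genes were), with a median log2 fold change of 0.44, and none was called by edgeR with or without the block or by DESeq2. The median was 0.19 without Control replicate 1, 0.23 without Trim33-deficient replicate 2 and 0.71 without Control replicate 2. Meis1, a homeobox factor of blood stem cells and of many embryonic tissues, had 88.2 and 72.1 CPM in Trim33-deficient and 41.0 and 59.0 CPM in Control libraries. The log2 difference was 0.68 (SE 0.22, unadjusted p = 0.0313, edgeR adjusted p = 0.608). Etv6, an ETS repressor, was at 0.44 (SE 0.19) and Irf8, a factor of white blood cells, at −1.28 (SE 0.50), with edgeR adjusted p of 0.657 for Etv6 and 0.644 for Irf8. Erg and Fli1, ETS factors shared by blood and endothelium, were low in Control replicate 1 as Tal1 was, with 124 and 77 counts of Erg in Trim33-deficient and 17 and 82 in Control libraries. Fli1 had 271 and 135 against 51 and 142.

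Relatives of the blood factors showed no common direction. Of 20 tested paralogs 10 lay above 0 and 10 below, with a median log2 fold change of −0.077, and none was called by edgeR with or without the block or by DESeq2. The median was 0.053 without Control replicate 1, 0.081 without Trim33-deficient replicate 2, −0.14 without Trim33-deficient replicate 1 and −0.31 without Control replicate 2. Tal2, the relative of Tal1 that acts in the midbrain, had 33 and 45 counts in Trim33-deficient and 152 and 63 in Control libraries. The log2 difference was −1.53 (SE 0.47, unadjusted p = 0.0257, edgeR adjusted p = 0.596). Klf2, a factor of endothelium and pluripotent cells, was at −0.57 (SE 0.22, adjusted p = 0.641).

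Within the pairs taken by replicate number, 6 of the 10 blood factors had opposite signs. Runx1, Gfi1b and Nfe2 were higher in the Trim33-deficient library of both pairs, which held for 30.3% of all tested genes, and Lmo2 was lower in both, as were 29.8%. The log2 ratio of Runx1, from TMM-scaled CPM with a prior count of 2, was 0.82 in pair 1 and 1.51 in pair 2. Tal1 stood at 2.31 in pair 1 and −0.66 in pair 2, and Lyl1 at 2.11 and −0.62. Gata2 and Gata1 did the reverse, with −1.30 and −1.27 in pair 1 and 0.81 and 1.34 in pair 2.

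**Figure D4:**
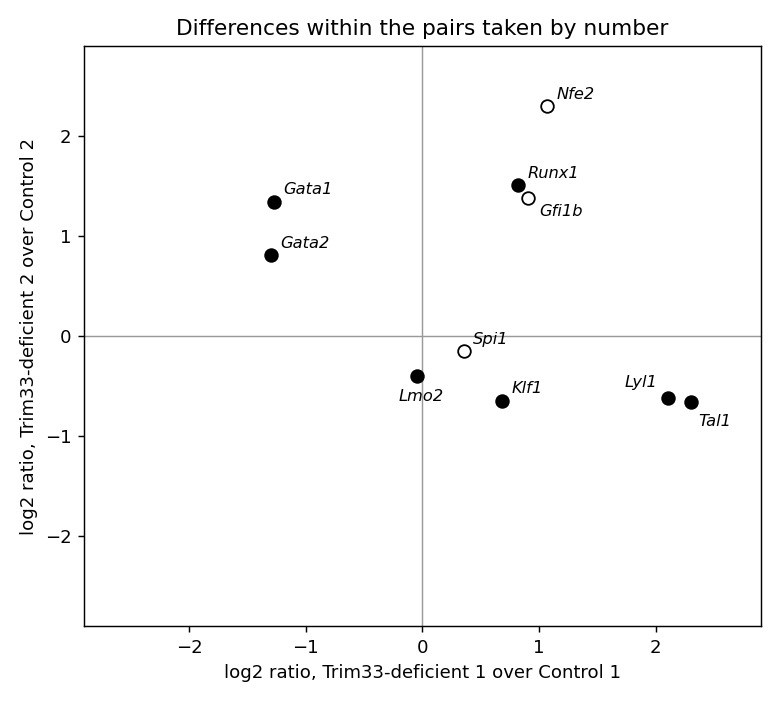
Log2 ratio of Trim33-deficient over Control within pair 1 (horizontal axis) and pair 2 (vertical axis) for the 10 genes, from TMM-scaled log2 CPM with a prior count of 2. Filled points were tested and open points were below the abundance filter. Runx1, Nfe2 and Gfi1b are at the upper right, while Tal1, Lyl1, Klf1 and Spi1 at the lower right and Gata1 and Gata2 at the upper left change sign between the pairs.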

How the data were processed

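The authors deposited raw counts per gene symbol for each library, and per the submitters' processing notes the tools were STAR, HTSeq and DESeq and the build mm9, with neither versions nor roles. Rows that name no gene, 55.5% to 56.0% of reads as no feature and at most 0.200% as ambiguous, entered neither library sizes nor tests. For 84 genes the authors' deposited table holds mean normalised signal, fold ratio, log2 ratio and raw and adjusted p-values, per its headers. Its sign was read from the Trim33 row. Genes passing filterByExpr (14259) were scaled by TMM and tested two-sided by the quasi-likelihood F-test of edgeR 4.0.16 (Benjamini-Hochberg over all tested genes, threshold 0.05) in R 4.3.3. A standard error is the absolute log2 fold change over the square root of F. DESeq2 1.42.0, limma 3.58.1 voom, the likelihood ratio test, other scalings and filters, the replicate block and each library left out were alternatives, and the code was tested on simulated data. Fits with 1 library left out assume that the remaining single library varies as the other group does.

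The labels speak of independent pairs, so replicate numbers were taken as pairs. Deviations of same-numbered libraries from their group means correlated at 0.236 across genes. Replicates were not duplicate deposits (chi-square per degree of freedom 24.3 for Trim33-deficient and 35.7 for Control). Floors of 3 counts cover counting error only. Lengths are of the longest GENCODE vM21 transcript and promoters are from RefSeq (GRCm38.p6), which matched 7 of the 10 genes with 10 start sites. Neither is the build named for the counts. The members and gene lists were chosen with earlier results of these data known. All 10 members are named, with the tested genes of smallest p in each list (up to 3), lineage landmarks, list genes in the authors' deposited table, and a few list genes added after their values were seen. The lists hold partners, other blood factors, paralogs, red cell, platelet, myeloid, endothelial and tissue markers. Of the 20 tested tissue markers edgeR called 0 and DESeq2 called 3 lower, the endoderm genes Afp, Ttr and Apoa1, at −4.86, −2.45 and −4.15 in the authors' deposited table.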

Additional observations from a re-analysis of the deposited data

How the results depend on the processing

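With 2 libraries a group and 1 count worth 0.0721 to 0.0977 CPM, changes in Spi1, Gfi1b, Nfe2, Gata1 and Klf1 could be seen only if large, and no call in Runx1 held under all tests. Runx1 kept its direction in every fit and passed the threshold under DESeq2 (1.23), DESeq2 without the filter (1.23) the likelihood ratio test (1.22) and DESeq2 without Control replicate 2 (1.27), and its log2 fold change ran from 0.79 to 1.56 with single libraries left out, by edgeR and DESeq2. DESeq2 leaving out libraries and DESeq2 without the filter were added after the data were seen. Under the same omissions the other members changed sign: Tal1 ran from −0.35 to 2.15, Gata1 from −1.72 to 1.53, Gata2 from −1.31 to 0.82, Klf1 from −0.92 to 1.11, Lmo2 from −0.52 to 0.061 and Lyl1 from −1.04 to 3.13. By edgeR alone, Hbb-bh1 ran from −0.81 to 7.24, Hbb-y from −1.20 to 5.25, Csf1r from −0.77 to 0.64, Kdr from −0.71 to 2.30 and Pecam1 from −0.50 to 0.32. Voom gave 0.99 for Tal1, −0.30 for Gata2, −0.15 for Gata1, 0.12 for Klf1, 1.04 for Lyl1 and 3.28 for Hbb-bh1. The replicate block, which takes the numbers as pairs, gave 0.79 for Tal1, 0.17 for Gata1, −0.27 for Gata2, −0.027 for Klf1, 0.59 for Lyl1 and 1.98 for Hbb-bh1 and changed no member's call. Without Control replicate 1 the list genes Etv6, Irf8, Tal2, Klf2, Cdh5, Meis1 and Cbfb stood at 0.22, −0.71, −0.99, −0.28, −0.33, 0.44 and 0.16, and without Trim33-deficient replicate 2 Sox17 and Ssbp4 at −0.23 and 0.13, all on the side of 0 they held with all libraries. The cause of these shifts was not tested. With Control replicate 2 left out, DESeq2 also called list genes higher, in the fit with the most calls. Among them were Zfpm1, Meis1, Erg, Fli1, Hbb-bh1, Hba-x, F2rl2, Kdr and Cd34. Ets1, Mef2c and the paralogs Gata4 and Gata6 were among them too, at DESeq2 log2 fold changes of 2.04, 1.88, 0.86 and 2.78. Across all genes, higher calls numbered 26 with DESeq2, 29 with the likelihood ratio test, 23 with DESeq2 without the filter and 0 to 391 with a library left out, against 0. Lower calls numbered 14 without the filter, 115 with DESeq2, 140 with the likelihood ratio test, 0 with voom, 113 with DESeq2 without the filter, 4 at a threshold of 0.1 and 0 to 284 with a library left out, against 2. The paralog median was −0.13 with library size alone, −0.12 with upper quartile scaling, −0.052 with the block, −0.19 without the filter, 0.15 with a stricter filter and −0.31 to 0.081 with a library left out. The red cell median was 0.49 without the filter and −0.53 to 2.74 with a library left out. The megakaryocyte median was 1.45 without the filter, 0.70 with a stricter one, 1.21 with voom, 1.22 with the block and 0.61 to 2.31 with a library left out, and that of other blood factors was 0.19 to 0.71.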
